A study of Mus musculus with 18 samples.

Results

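The oxidative phosphorylation system was followed through its nuclear genes in FVB/N mouse embryonic stem (ES) cells. Members were all probe sets of the chips U74Av2, U74Bv2 and U74Cv2 that carry a single gene symbol beginning with Nduf, Uqcr, Atp5, Cox4, Cox5, Cox6, Cox7 or Cox8, or the symbol Sdha, Sdhb, Sdhc, Sdhd or Cyc1. They numbered 147 probe sets of 81 genes, out of 36701 probe sets that are not controls. A further 16 probe sets were left out because they are paired with several symbols. By complex, the members were 57 probe sets of 32 genes for complex I, 7 of 4 genes for complex II, 12 of 8 genes for complex III, 34 of 16 genes for complex IV and 26 of 14 genes for complex V, with 11 probe sets of 7 assembly factors (Ndufaf genes). U74Av2 held 100 of them, U74Bv2 14 and U74Cv2 33. A letter before the ending of a probe set name, as in _f_at, _i_at or _r_at, is a suffix. For some letters it stands for possible cross-hybridization. A suffix was carried by 59 of the 147 members, and also by some probe sets of other genes named below.

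RNA came from 3 dishes of WT cells kept with LIF and from 3 dishes of a transgenic line that overexpresses STAT3-MER and was kept with OHT (4-hydroxytamoxifen) and no LIF. In STAT3-MER, STAT3 is joined to an altered ligand-binding part of the mouse estrogen receptor, and expression comes from the β-actin promoter of the chicken. LIF is the cytokine that maintains self-renewal through STAT3, and OHT activates the fusion protein in its place. Each group was a single cell line, derived on feeder fibroblasts, so that line, transgene, OHT and LIF cannot be told apart and p-values measure only the spread between dishes. Each dish was hybridized to all 3 chips, as 18 arrays. Values are linear MAS5 signals, an intensity per probe set, and a difference is STAT3-MER minus WT on the log2(signal + 32) scale, which understates changes of dim probe sets. In bulk RNA, fewer cells of a type and less RNA per cell cannot be told apart.

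The respiratory chain in the inner mitochondrial membrane passes electrons from NADH (complex I) and succinate (complex II) through complex III and cytochrome c to oxygen at complex IV, and complex V uses the resulting proton gradient to make ATP. Complexes I, III, IV and V mix subunits encoded by the nucleus and by mitochondrial DNA, whereas complex II is encoded by the nucleus alone. ES cells rely strongly on glycolysis while they keep a working respiratory chain. Genes of mitochondrial DNA are not among the probe sets with a gene symbol used here.

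The libraries differed in their 3′ to 5′ ratios and in the signals of feeder cell markers. On U74Av2 the ratio of the 3′ to the 5′ probe sets of Gapdh was highest in WT dish 1 (15.3, others 9.06 to 10.6), and on U74Bv2 and U74Cv2 in WT dish 2 (20.0 and 16.2), so chips were not joined by dish. Summed over 15 feeder fibroblast markers on U74Av2, signals ran from 22504 to 53710 in WT and from 13376 to 56910 in STAT3-MER dishes, none of the 26 marker probe sets had separated groups, and 22 were below 0. The highest sum was in STAT3-MER dish 2, and Col1a2 was present in every dish (1978 to 12565 on its brightest probe set). Summed over 11 ES cell markers, signals ran from 63720 to 89274 and from 67809 to 80677. The part of RNA quality and of feeder cells in the results of single probe sets was not tested.

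Promoters of the nuclear respiratory genes are known for sites of the factors NRF-1, GABP (an ETS factor) and YY1, and STAT3 binds a palindromic site. A RefSeq window (GRCm38.p6) from 250 bases before to 50 bases after the start was matched for 66 of the 81 genes. No window was matched for Atp5a1, Atp5mpl, Cox4i1, Cox6a2, Cox6c, Cox8c, Cyc1, Ndufa2, Ndufaf6, Ndufb9, Ndufs1, Sdhc, Uqcrb, Uqcrc2 and Uqcrq. It was searched on both strands for GCGCATG (core of the NRF-1 site), CCGGAAG (ETS), AAGATGGC (YY1) and TTCNNNGAA (STAT), where N is any base. The NRF-1 letters were present in 14 of 66 genes (21.2%), against 4.41% of all 27025 genes with a window, noncoding genes included. The ETS letters were present in 18 genes (27.3%, against 9.93%) and the YY1 letters in 10 genes (15.2%, against 3.19%). The STAT letters were present in 5 genes, Atp5d, Atp5o, Atp5pb, Ndufa8 and Ndufb6, which is 7.6% against 9.55% of all genes. Of the 66 genes, 35 had at least 1 of the 4 motifs and 11 had 2 or more. A match describes the letters of a window and is not a measured binding site.

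Shown here are 200 bases before the start, in the direction of transcription, for the gene of each complex with most of the 4 motifs there (the brightest probe set where genes tied), and for Ndufb2, whose probe sets are described further on. Capitals mark the motifs. In Ndufb6 they are the NRF-1 and STAT letters, in Sdhb the NRF-1 letters on the opposite strand, in Uqcr11 the ETS letters, in Cox6a1 a pair of overlapping NRF-1 matches on both strands and the ETS letters on the opposite strand, and in Atp5j the YY1 and then the ETS letters. None of these letters is present in the 200 bases of Ndufb2.
Ndufb6, chr4:40279422-40279621, minus strand: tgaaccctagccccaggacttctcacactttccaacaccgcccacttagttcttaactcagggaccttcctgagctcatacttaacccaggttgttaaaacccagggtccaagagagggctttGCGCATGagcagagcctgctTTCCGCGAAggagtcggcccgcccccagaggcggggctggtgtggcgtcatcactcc
Sdhb, chr4:140961071-140961270, plus strand: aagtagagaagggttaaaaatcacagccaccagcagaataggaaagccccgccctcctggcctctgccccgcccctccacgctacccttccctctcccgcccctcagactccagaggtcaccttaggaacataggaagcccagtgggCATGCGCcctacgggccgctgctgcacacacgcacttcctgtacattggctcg
Uqcr11, chr10:80406822-80407021, minus strand: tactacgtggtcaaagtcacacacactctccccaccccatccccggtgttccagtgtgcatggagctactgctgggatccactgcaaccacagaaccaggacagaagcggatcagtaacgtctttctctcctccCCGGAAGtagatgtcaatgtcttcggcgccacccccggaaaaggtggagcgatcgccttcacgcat
Cox6a1, chr5:115348959-115349158, minus strand: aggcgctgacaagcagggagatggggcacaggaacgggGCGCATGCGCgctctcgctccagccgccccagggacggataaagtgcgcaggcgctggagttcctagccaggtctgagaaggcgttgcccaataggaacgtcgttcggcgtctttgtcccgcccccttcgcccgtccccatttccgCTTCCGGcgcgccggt
Atp5j, chr16:84834977-84835176, minus strand: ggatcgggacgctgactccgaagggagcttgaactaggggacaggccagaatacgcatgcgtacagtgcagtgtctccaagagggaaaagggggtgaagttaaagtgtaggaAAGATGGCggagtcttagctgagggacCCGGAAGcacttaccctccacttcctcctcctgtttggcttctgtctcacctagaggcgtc
Ndufb2, chr6:39592365-39592564, plus strand: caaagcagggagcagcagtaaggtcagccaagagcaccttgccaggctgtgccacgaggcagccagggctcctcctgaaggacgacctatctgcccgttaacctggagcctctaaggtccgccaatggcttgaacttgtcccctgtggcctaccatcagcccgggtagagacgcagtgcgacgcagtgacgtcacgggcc

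With one probe set per gene, the median difference of genes with and without each motif lay near 0. It was -0.02 with and -0.05 without the NRF-1 letters, -0.07 and -0.04 for ETS, 0.05 and -0.06 for YY1, and 0.02 and -0.05 for STAT. These medians are a description, with no test.

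No respiratory chain gene was called between WT and STAT3-MER cells, and the median differences of the complexes lay close to 0. Of 147 probe sets, 72 had a difference above 0 and 75 below 0, and the median was -0.018, against 0.0094 over all probe sets. None was higher at an adjusted p under 0.05 (limma, Benjamini-Hochberg over all probe sets), where the background of calls was 0.00272%, and none was lower, with a background of 0%. The only probe set called on the 3 chips was of Esr1, whose ligand-binding part belongs to the fusion. At an unadjusted limma p under 0.05, 5 members were higher (3.4%, background 1.88%) and 4 were lower (2.72%, background 1.57%). Together these were 6.12% of the members, against 3.45% of all probe sets. With 1 probe set per gene (one without a suffix preferred, then the brightest) this was 1 of 81, or 1.23%. No share of all genes chosen in the same way was computed. The 3 dishes of each group did not overlap for 6 members that were higher (background 4.5%) and 6 that were lower (background 3.63%), together 8.16% of the members against 8.13% of all probe sets. With 1 probe set per gene this was 2.47%, again without a like background. By the criteria of the study's methods (means that differ by over 100 and by over 1.5-fold, with p under 0.1 in the methods' t-test), 3 members were higher (background 1.1%) and 1 was lower (background 0.872%). The methods' t-test called no member after Benjamini-Hochberg adjustment, but it called 0 of all 36701 probe sets as well. The share of members with separated groups was thus close to that of all probe sets.

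**Figure D1:**
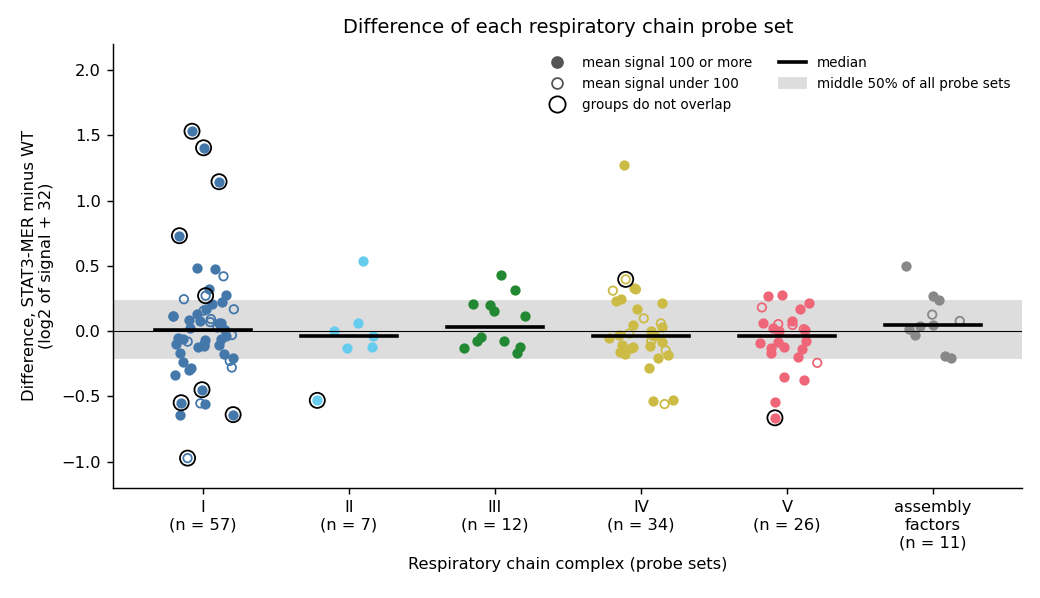
Difference of each respiratory chain probe set, STAT3-MER minus WT on the log2(signal + 32) scale, by complex. Lines are medians, between -0.04 and 0.05, the grey band is the middle 50% of all probe sets (-0.21 to 0.23), open dots have a mean signal under 100, and black rings mark the 12 probe sets whose groups do not overlap, 9 of them in complex I.

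Complex by complex, the medians stayed within 0.05 of 0. Complex I had a median difference of 0.005, with 29 of 57 probe sets above 0, and complex II of -0.034, with 2 of 7 above 0. Complex III had a median of 0.034 (6 of 12 above 0), complex IV of -0.036 (14 of 34), complex V of -0.036 (13 of 26) and the assembly factors of 0.049 (8 of 11). Separated groups were found for 5 higher and 4 lower probe sets of complex I, for 1 lower of complex II, for none of complex III, for 1 higher of complex IV and for 1 lower of complex V. These are 15.8% of the probe sets of complex I, 14.3% of complex II, 2.94% of complex IV and 3.85% of complex V, against 8.13% of all probe sets, as a description with no test. Of the 9 in complex I, 3 belong to the single gene Ndufb2. The median signal of the WT dishes was 955.5 for complex I, 2330 for complex II, 3230 for complex III, 271.8 for complex IV and 859.1 for complex V. In STAT3-MER cells these medians were 891.9, 2511, 3146, 279.1 and 934.8. Probe sets differ in how strongly they bind their target, so the order of these medians is not one of mRNA abundance. Complex IV includes dim probe sets of isoforms and also of Cox5a, Cox6c and Cox8a.

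Dishes of the same group differed by more than the groups did. On U74Av2, the median deviation of complex I from each probe set's mean was 0.12, -0.0046 and -0.08 in WT dishes 1 to 3, and -0.02, -0.07 and 0.03 in the STAT3-MER dishes. That of complex IV was 0.10, 0.13 and -0.21 in WT against -0.06, -0.09 and -0.04 in STAT3-MER cells. For complex III the values were 0.10, -0.02 and -0.05 against -0.17, 0.05 and 0.03, and for complex V 0.03, 0.04 and -0.08 against -0.02, -0.06 and -0.02. The groups overlapped in each of these complexes, and in complex II, where the values ran from -0.07 to 0.05 in WT and from -0.16 to 0.05 in STAT3-MER cells.

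**Figure D2:**
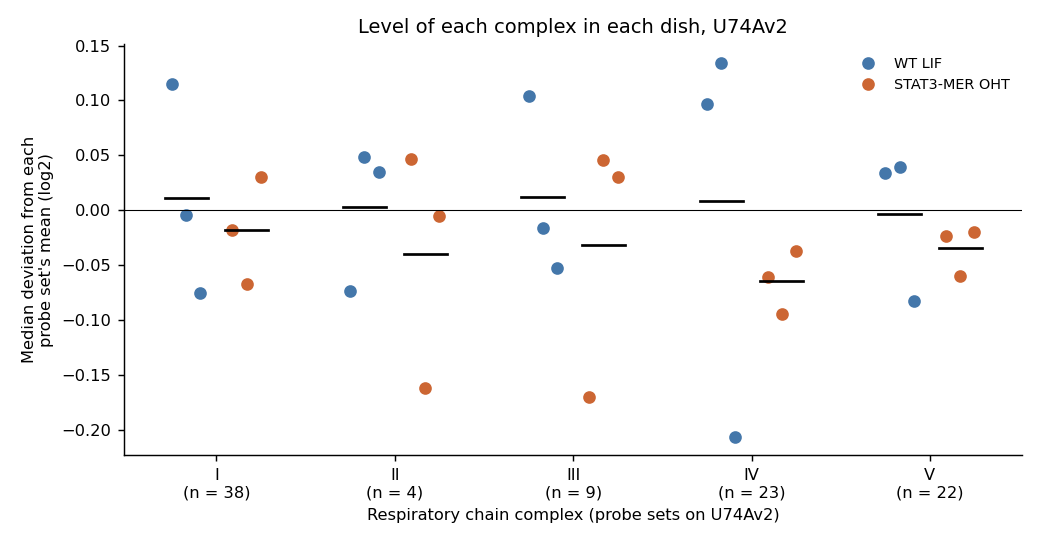
Level of complexes I to V in each dish on U74Av2, as the median log2 deviation of its probe sets from their mean over 6 dishes. Points are dishes and bars the mean of each group, and the 2 groups overlap in all 5 complexes, with WT dishes of complex IV spread from -0.21 to 0.13.

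The bright probe sets bounded any change most tightly. Of 63 members with a mean signal of at least 1000, differences ran from -0.64 to 0.31, and 59 had a 95% interval (limma, unadjusted) within a 2-fold change in either direction, 34 of them within 1.5-fold. The share within 2-fold was 93.7%, against 80.1% of all 5725 probe sets this bright. The median of these 63 was -0.06, against -0.01 over all bright probe sets, and 39 of them lay below 0. Complex IV contributed 9 of 11 below 0 (median -0.10) and complex V 8 of 12 (median -0.09). Of 54 members with signals of 100 to 1000, 26 had an interval within 2-fold, and of 30 members under 100, 18 did. The added 32 pulls the differences of dim probe sets toward 0.

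**Figure D3:**
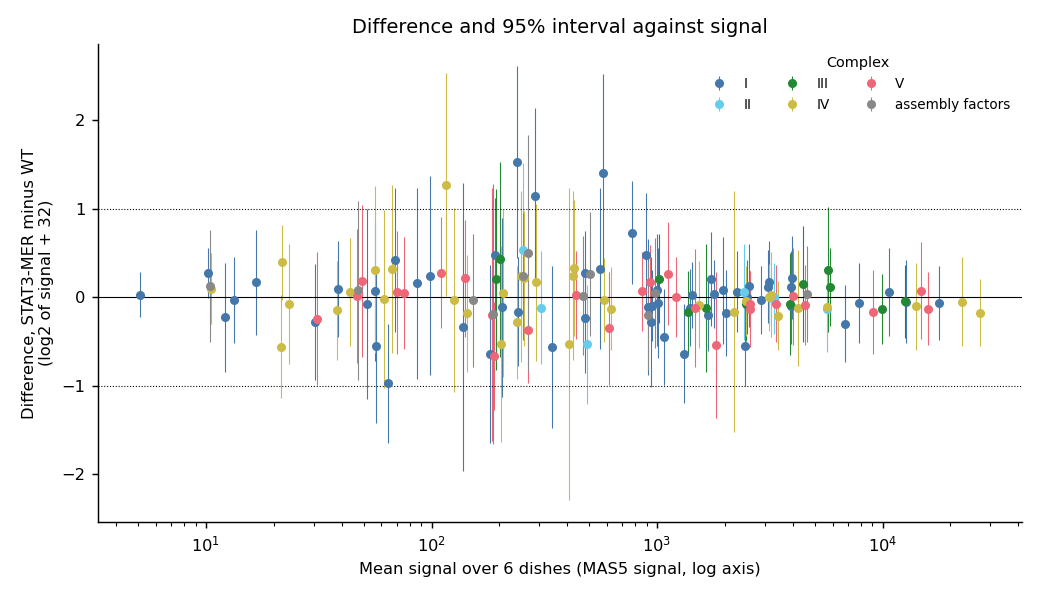
Difference of each member (STAT3-MER minus WT, log2(signal + 32)) with its 95% limma interval, against mean signal on a log axis, coloured by complex. Dotted lines mark a 2-fold change, and 59 of 63 intervals at signals of 1000 or more lie between them.

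Complex I takes up electrons from NADH through core subunits with flavin and iron-sulfur clusters, surrounded by accessory subunits. Ndufs8, a core iron-sulfur subunit, had the brightest probe set of the complex, with signals of 20494, 18751 and 15574 in WT against 16104, 17171 and 18959 in STAT3-MER cells. The groups overlapped, and the difference was -0.06 ± 0.19 (SE, n = 3 dishes per group, adjusted p = 1.0).

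Ndufb2, an accessory subunit of the membrane arm, had lower mean signals in STAT3-MER cells on each of its 3 bright probe sets, without passing the test. On the U74Av2 probe set 95132_r_at the signals were 3475, 2690 and 2577 in WT against 1704, 2261 and 1968 in STAT3-MER dishes. On the U74Cv2 probe set 171505_f_at they were 1451, 1573 and 1811 against 993.2, 869.4 and 1224. On both, every STAT3-MER dish lay below every WT dish, by -0.55 ± 0.20 and -0.64 ± 0.25 (SE). The 95% intervals were -0.999 to -0.098 and -1.197 to -0.082, and the adjusted p was 1.0 for both. The brightest, 95131_f_at, gave 7851, 7770 and 6831 against 5219, 5917 and 7247, a difference of -0.30 ± 0.19 with overlapping groups. All 3 carry a suffix for possible cross-hybridization. On the remaining probe sets of Ndufb2 the signals stayed under 17, and one of them, 162473_r_at, was higher in every STAT3-MER dish (14.9, 11.5 and 16.2 against 4.51, 5.42 and 8.92).

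Among the other accessory subunits, Ndufb10 (101525_at) gave 1660, 1101 and 995.6 in WT against 757.0, 964.5 and 954.2 in STAT3-MER cells. The groups did not overlap, and the difference was -0.45 ± 0.24 (SE, 95% interval -0.99 to 0.095). WT dish 1 was the highest, and without it the difference became -0.23. Ndufc2 (93359_at) was dim, at 110.7, 91.8 and 81.3 against 15.4, 32.9 and 54.0. Its difference was -0.97 ± 0.29 (SE, 95% interval -1.65 to -0.30, adjusted p = 1.0). No other member had a smaller unadjusted p.

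On the higher side, 4 complex I genes stood apart on U74Cv2 and not on U74Av2. Ndufa9, an accessory subunit of the peripheral arm, had signals of 581.7, 574.3 and 559.6 in WT against 978.7, 904.7 and 1032 in STAT3-MER dishes on 168982_i_at. The dishes agreed closely within each group, with a difference of 0.73 ± 0.26 (SE, 95% interval 0.15 to 1.32, adjusted p = 1.0). On U74Av2 the probe set of the same gene gave 1691, 2039 and 1851 against 1913, 1385 and 2827, a difference of 0.08 ± 0.26 with overlapping groups.

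Ndufs1, the largest core subunit with iron-sulfur clusters, had 108.0, 495.8 and 411.2 in WT against 718.2, 842.7 and 894.7 in STAT3-MER dishes on 139979_at. WT dish 1 was the lowest by far, and the difference of 1.40 ± 0.50 (SE) became 0.81 without it. On the brighter U74Av2 probe set of Ndufs1 the means were 2514 and 2518, a difference of 0.005 ± 0.18, and on 139980_g_at the difference was -0.11 ± 0.45.

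Ndufa6, an accessory subunit of the LYR family, had 94.8, 121.7 and 87.1 against 204.8, 544.4 and 379.2 on 133063_at. The difference of 1.53 ± 0.48 (SE, 95% interval 0.44 to 2.62, adjusted p = 1.0) was the largest of all members. Its other probe sets ran the opposite way with overlapping groups, at -0.56 ± 0.41 on U74Cv2 and -0.11 ± 0.33 on U74Av2.

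Ndufab1, the mitochondrial acyl carrier protein, had 118.5, 217.4 and 158.6 against 516.8, 453.0 and 258.6 on 171118_at, a difference of 1.14 ± 0.44 (SE). On its bright U74Av2 probe set the means were 2449 and 2669, a difference of 0.13 ± 0.20. Of 28 member genes with 2 or more probe sets at a mean signal of at least 100, 17 had the same sign on all of them. On U74Cv2, 10.3% of all probe sets had groups that did not overlap, against 7.07% on U74Av2 and 7.15% on U74Bv2, and among the members 5 of 33, 6 of 100 and 1 of 14 did so.

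**Figure D4:**
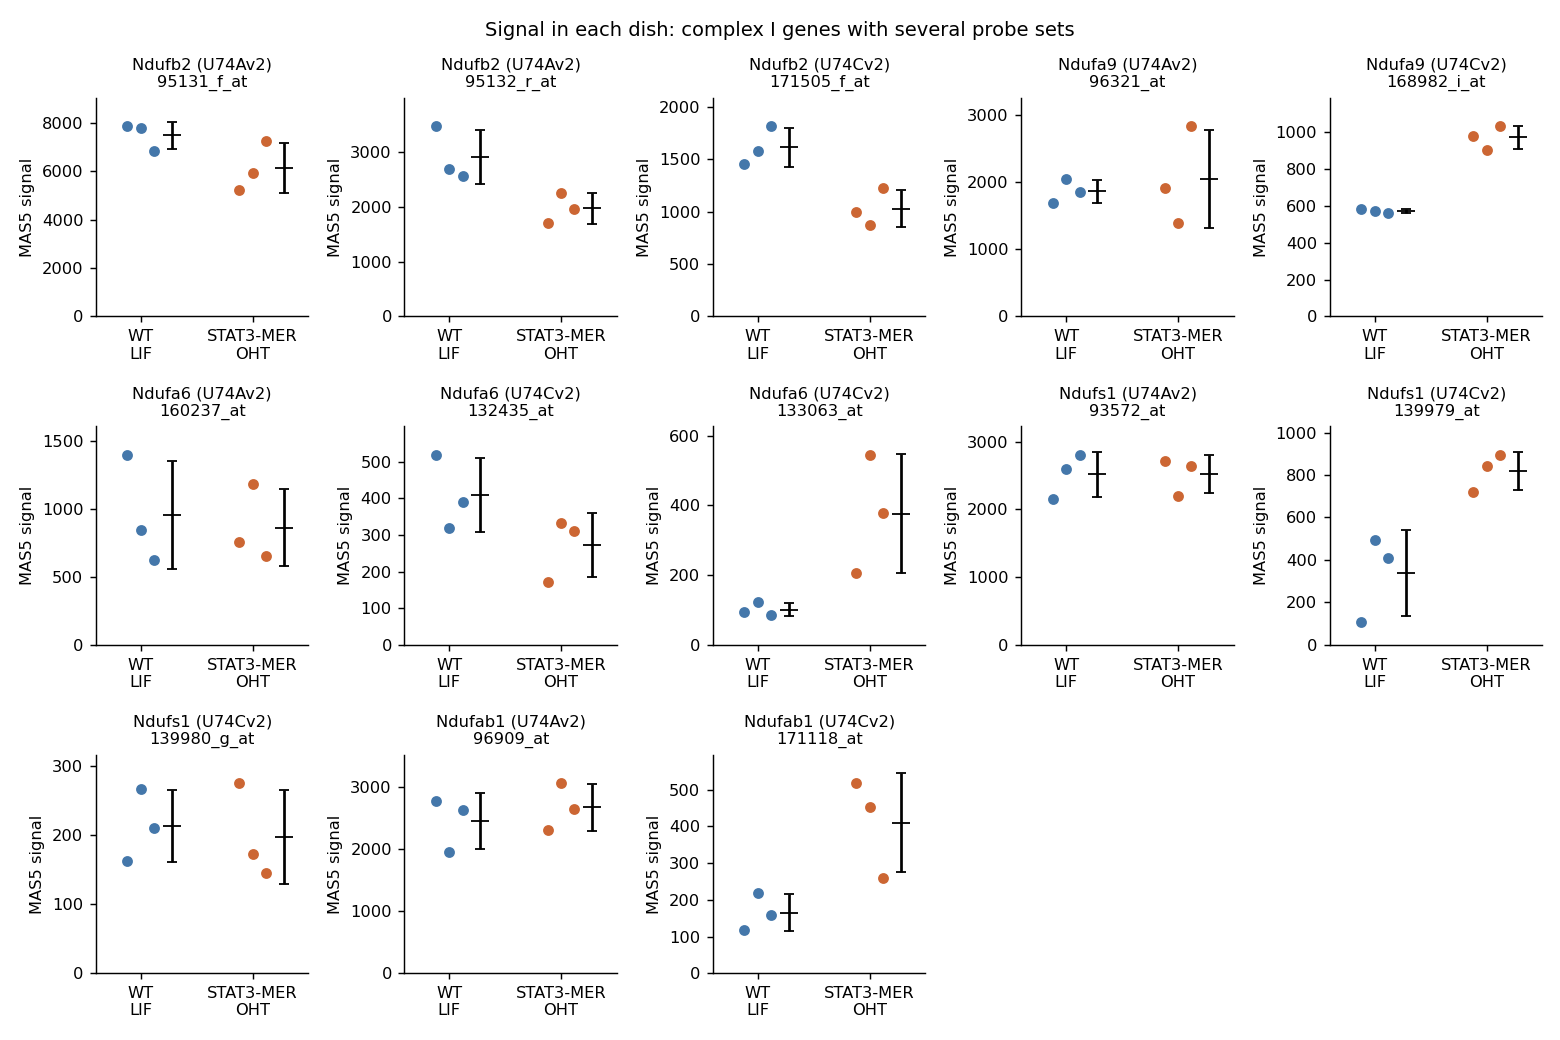
MAS5 signal in each dish for 13 probe sets of the complex I genes Ndufb2, Ndufa9, Ndufa6, Ndufs1 and Ndufab1, on axes that start at 0. Points are dishes and the bars to their right mean ± SD (n = 3). The Ndufb2 probe sets had lower means in STAT3-MER cells, whereas for the other 4 genes every STAT3-MER dish was higher on a U74Cv2 probe set and the groups overlapped on U74Av2.

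Complex II (succinate dehydrogenase) links the chain to the citric acid cycle. Sdhb, its iron-sulfur subunit, gave 6049, 6337 and 5306 in WT against 4455, 6180 and 5609 in STAT3-MER cells (164293_at), a difference of -0.13 ± 0.22 (SE) with overlapping groups. For the membrane anchor Sdhc, 164631_f_at gave 668.8, 564.3 and 505.1 against 300.5, 388.1 and 501.5, and the groups were just apart (-0.53 ± 0.30). The brighter U74Av2 probe set of Sdhc had means of 3287 and 3291, a difference of -0.0016 ± 0.17. The other anchor, Sdhd, gave 278.1, 120.4 and 225.3 against 275.9, 340.6 and 289.9 on 169663_at, a difference of 0.53 ± 0.44 with overlapping groups, and 0.06 on its U74Av2 probe set. Without WT dish 2, the lowest, the difference on 169663_at became 0.24.

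In complex III, which oxidizes ubiquinol and reduces cytochrome c, no probe set had separated groups. Cyc1 (cytochrome c1) gave 13564, 12606 and 12043 in WT against 11163, 13526 and 12396 in STAT3-MER cells, a difference of -0.05 ± 0.18 (SE). The probe sets with the smallest p were of Uqcrb (3674, 6223 and 5292 against 6967, 4079 and 8192), of the core subunit Uqcrc1 (1064, 935.2 and 827.4 against 1034, 1229 and 1013) and of the hinge protein Uqcrh (221.1, 199.8 and 87.5 against 211.4, 311.1 and 172.1). Their differences were 0.31 ± 0.31, 0.21 ± 0.23 and 0.43 ± 0.49 (SE), and the groups overlapped on all of them. Without WT dish 1, Uqcrb was at 0.10, and without STAT3-MER dish 3 at 0.11. Without WT dish 3, Uqcrc1 was at 0.12 and Uqcrh at 0.088, and without STAT3-MER dish 2 they were at 0.12 and 0.22. The brighter U74Av2 probe set of Uqcrh, 99115_at, was at -0.12 ± 0.32.

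In complex IV (cytochrome c oxidase) the brightest probe set of all members belonged to Cox5a, with 29247, 29885 and 27172 in WT against 23682, 27437 and 25477 in STAT3-MER dishes. The difference was -0.17 ± 0.17 (SE), with overlapping groups. Separated groups were found on a dim probe set of Cox6c (100551_r_at), at 13.7, 20.9 and 8.47 against 24.4, 38.8 and 23.8. On the bright probe set of Cox6c the means were 22931 and 21888. The dim probe set of Cox8a gave 37.6, 11.9 and 47.7 against 3.94, 9.42 and 19.1, with overlapping groups.

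Several complex IV subunits have isoforms known from heart, muscle or testis, and the brighter U74Av2 signals of Cox6b2 varied widely between dishes of a group. Cox6b2, known from testis, had signals of 4503, 1321 and 1213 in WT against 1196, 3762 and 1139 in STAT3-MER dishes on 97352_f_at. WT dish 1 and STAT3-MER dish 2 were high, and the same 2 dishes stood out on 97351_i_at (1243, 188.7 and 165.3 against 138.9, 564.8 and 148.3). The differences of -0.16 ± 0.59 and -0.53 ± 0.77 (SE) turned to 0.44 and 0.34 without WT dish 1. The third and dim U74Av2 probe set, 160813_r_at, had another order, at 68.6, 101.1 and 19.1 against 66.3, 90.6 and 22.7, with dish 2 highest in both groups. On U74Cv2 the Cox6b2 probe set gave 378.9, 359.3 and 379.7 against 592.9, 355.8 and 508.7.

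Cox8c, also known from testis, had 25.1, 20.2 and 150.2 in WT against 145.9, 194.1 and 159.0 in STAT3-MER dishes on 168578_r_at. Here WT dish 3 overlapped with the STAT3-MER dishes (1.27 ± 0.56, SE, 95% interval 0.012 to 2.54, adjusted p = 1.0). The other 4 probe sets of Cox8c had differences of -0.53 to 0.24. For Cox7a1, the heart and muscle isoform, signals were 286.6, 254.1 and 126.2 against 371.5, 315.7 and 135.5, and for Cox6a2, of the same tissues, 42.9, 45.5 and 35.6 against 35.0, 148.5 and 29.9. Cox7b2 had a difference of 0.17 and Cox8b of -0.29 and 0.06, all with overlapping groups.

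**Figure D5:**
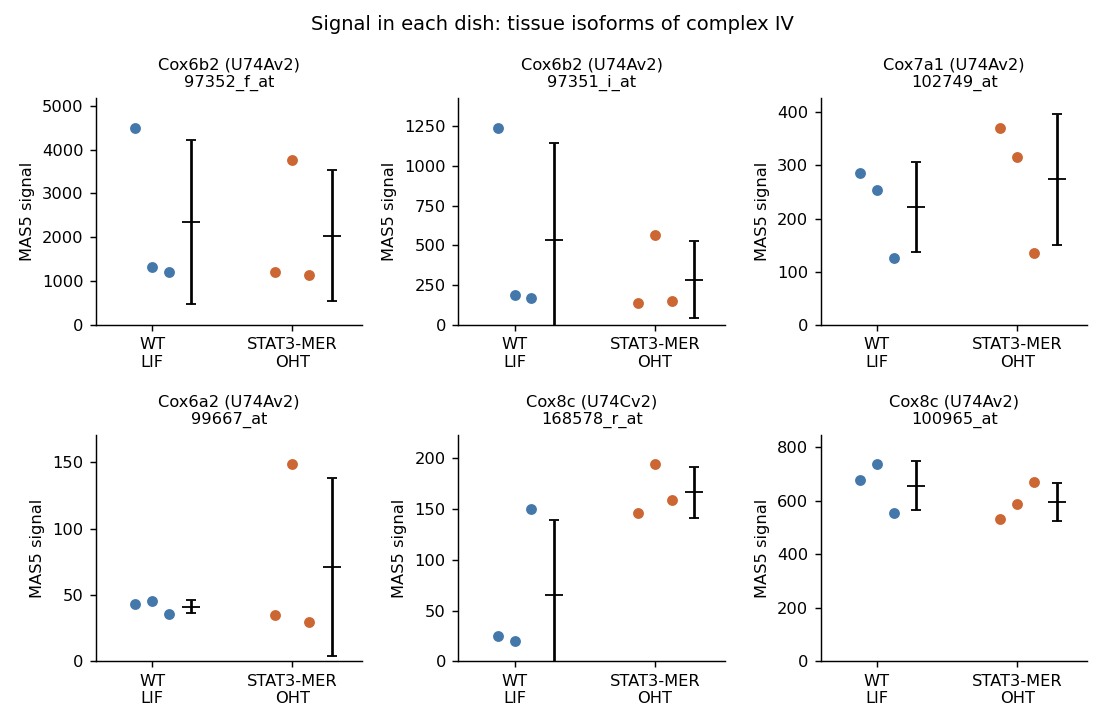
MAS5 signal in each dish for 6 probe sets of the complex IV isoforms Cox6b2, Cox7a1, Cox6a2 and Cox8c, on axes that start at 0. Points are dishes and the bars to their right mean ± SD (n = 3), cut off at 0 on 2 of the plots. WT dish 1 and STAT3-MER dish 2 were high for Cox6b2 on both U74Av2 probe sets plotted, and the groups overlapped on all 6.

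Complex V (ATP synthase) consists of a catalytic head, a rotor and a membrane part. Atp5a1, the alpha subunit of the head, gave 15632, 18157 and 16125 in WT against 15024, 14634 and 15842 in STAT3-MER cells, a difference of -0.13 ± 0.18 (SE) with overlapping groups. Atp5l, subunit g of the membrane part, gave 243.7, 238.9 and 231.9 against 151.3, 166.1 and 104.4 on 99678_f_at. The groups were apart, at -0.66 ± 0.27 (SE, 95% interval -1.28 to -0.053, adjusted p = 1.0). Its brighter probe set gave 3681, 1256 and 1848 against 1244, 1626 and 1347, where WT dish 1 stood alone and the difference of -0.54 ± 0.36 became -0.12 without it. Atp5pb, subunit b of the stator, gave 248.6, 380.9 and 292.1 against 260.5, 188.6 and 234.7, a difference of -0.38 ± 0.26 with overlapping groups, and of -0.22 without WT dish 2.

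The other genes of mitochondrial energy metabolism were likewise without calls in either direction. At an unadjusted limma p under 0.05, where the background over all probe sets was 1.88% higher and 1.57% lower, the counts were small. Of 36 probe sets of assembly factors outside the Ndufaf family, 2 were higher (5.56%) and none lower. Of 27 of the citric acid cycle, 2 were higher (7.41%) and none lower, and of 28 of regulators of mitochondrial biogenesis, none was higher and 1 lower (3.57%). Of 129 of the mitochondrial ribosome, 2 were higher and 2 lower (1.55% each), and none of 18 of carriers and pores or of 14 of other points of electron entry passed this limit. Separated groups were found for 5.56% of the assembly factors, 11.1% of the citric acid cycle, 7.14% of the regulators, 10.9% of the mitochondrial ribosome (9 higher and 5 lower) and none of the other lists, against 8.13% of all probe sets. The medians of these lists lay between -0.0048 and 0.053. These shares and medians are descriptions, with no test of the lists.

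The 9 probe sets of these lists below that limit were the following, and none passed the adjusted test. The lowest p was on a probe set of Suclg2, the beta subunit of the GTP-forming succinyl-CoA ligase, 169372_i_at on U74Cv2, at 147.4, 184.1 and 203.0 in WT against 694.0, 799.6 and 940.0 in STAT3-MER dishes. The groups were apart by 2.00 ± 0.34 (SE, limma adjusted p = 0.967), while the brighter U74Av2 probe set of Suclg2 was at -0.19 ± 0.26 and that on U74Bv2 at -0.63 ± 0.55. Sucla2, the subunit of the ATP-forming enzyme, had 57.3, 91.2 and 61.1 against 353.8, 300.8 and 89.0 on 135225_at. Its groups overlapped (1.31 ± 0.56), and its bright U74Av2 probe set was at 0.01 ± 0.37. Atpaf1, an assembly factor of complex V, was dim on 170807_at, at 72.7, 66.9 and 38.3 against 274.7, 172.9 and 200.3 (1.44 ± 0.45, groups apart), and its U74Bv2 probe sets were at -0.40 ± 0.71 and 0.02 ± 0.25. Sdhaf2, an assembly factor of complex II, had 446.9, 373.4 and 581.9 against 870.1, 711.6 and 1020 on 166987_r_at (0.86 ± 0.31, groups apart), whereas its brighter U74Cv2 probe set was at -0.39 ± 0.24. These 4 genes thus had a higher mean on a U74Cv2 probe set, with differences from -0.39 to 0.02 on their brightest.

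Tfam, which packages mitochondrial DNA and takes part in its transcription, had 2706, 2528 and 2620 against 1702, 1913 and 1954 on 166785_f_at of U74Cv2. The groups were apart, at -0.49 ± 0.20 (SE), while its dim U74Av2 probe set was at 0.59 ± 0.26. The 4 of the mitochondrial ribosome were on U74Bv2 for Mrpl1, U74Av2 for Mrpl49 and Mrpl48, and U74Cv2 for Mrpl38. Mrpl1 (1.27 ± 0.44) and a probe set of Mrpl49 with signals under 30 (0.40 ± 0.17) were on the higher side. Mrpl38 (-1.51 ± 0.34) and Mrpl48 (-0.45 ± 0.19) were on the lower, and all 4 had groups apart. On U74Av2 the further probe sets were at 0.09 ± 0.22 for Mrpl38, -0.0045 ± 0.22 for Mrpl48 and -0.38 ± 0.22 for Mrpl49. That of Mrpl49 was dim, with groups apart in the opposite direction. Mrpl48 was at -0.29 ± 0.37 on U74Bv2 and at -0.84 ± 0.50 on another U74Cv2 probe set, with overlapping groups. The brighter Mrpl1 probe set, also on U74Bv2, was at 0.15 ± 0.29 with overlapping groups. Cytochrome c overlapped between the groups for Cycs (0.16 ± 0.30) and for the testis form Cyct (-0.50 ± 0.31).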

How the data were processed

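RNA of 3 dishes per group was amplified in 2 rounds and hybridized to 3 chips. First-strand cDNA was primed at the poly(A) tail in the first round and by random primers in the second. An oligo(dT) primer was added after the random primers. Priming at the poly(A) tail favours 3′ ends. The authors deposited 1 linear signal intensity per probe set and array, scaled to a trimmed mean near 500.1 to 500.3. MAS5 is named in the processing notes of the submitters, without a version. Values the authors computed with dChip were not used here. Groups follow the labels, and a STAT3-MER array on U74Av2 without a number was called 2.

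Arrays were rescaled to the mean 2% trimmed mean of their chip and log2(signal + 32) was fitted with limma 3.58.1 in R 4.3.3 (eBayes with trend, 1 fit per chip, two-sided), with adjustment over 36701 probe sets and a threshold of 0.05. Precision is limited by the number of arrays, and with 3 against 3 dishes, an exact permutation test cannot go below 0.1. The fit was tested on simulated data. Symbols come from the chip annotation, and all 81 genes matched RefSeq (GRCm38.p6), the source of the promoters. Figures used matplotlib 3.10.9.

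Members and lists were chosen with earlier results of these data known. Named are all members with groups that do not overlap, the 3 of each complex with the smallest p, the brightest without a suffix, and tissue isoforms of complex IV. The genes of the other lists (Tfam, Cycs, Cyct, Suclg2, Sucla2, Atpaf1, Sdhaf2, Mrpl1, Mrpl38, Mrpl48 and Mrpl49) and the dish values of further probe sets of named genes, were chosen after their values were seen. Alternatives were other scalings, pseudocounts of 8 and 100, a floor of 100 on the mean signal, no trend, adjustment within chips, a replicate block, each dish left out, the methods' t-test, and subsets of probe sets.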

Additional observations from a re-analysis of the deposited data

How the results depend on the processing

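No member was called under any alternative run, but calls were rare over all probe sets too. Other scalings, pseudocounts, the signal floor, no trend and the replicate block each gave 1 call among all probe sets. Each dish left out also gave 1, or 2 without WT replicate 3, and the methods' t-test gave 0. The medians of complexes I, II and IV, and that of all members, moved by less than the spread between dishes. Without 1 dish the median of complex V ran from -0.093 to -0.021. That of complex III was -0.075 both with probe sets without a suffix and with U74Av2 alone. Members at an unadjusted p under 0.05 were 6.12%, against 3.45% of all probe sets. Without 1 dish they were 2.72% to 6.12%, against 3.25% to 3.86% of all probe sets. They numbered 5, 4, 5 and 5 without WT replicate 1 and STAT3-MER replicates 1, 2 and 3. The share was 1.23% with 1 probe set per gene, for which no like background was computed. It was 3.0% on U74Av2 alone, against 2.63% of all probe sets there. The methods' criteria passed 2.72% of members (background 1.1% higher and 0.872% lower). Members with separated groups were 8.16%, and from 15.6% to 23.1% without 1 dish (fewer dishes separate more often, 16.3% to 18.3% of all probe sets). They were 2.47% with 1 probe set per gene, again without a like background. Whether equal numbers pair the dishes differed by chip. The correlations of deviations of same-number dishes were -0.30, -0.33 and 0.29 on U74Av2, where only 2 of 6 dishes correlated best with their own number (WT 1 with STAT3-MER 2 at 0.46, WT 2 with STAT3-MER 1 at 0.41), 0.18, 0.21 and 0.13 on U74Bv2, and 0.11, 0.13 and 0.070 on U74Cv2, where 6 of 6 did so on each. This is a hint from the data, and the numbers were used as labelled, so that a block on U74Av2 may join dishes that are no pair. The replicate block gave 4.76% of members at an unadjusted p under 0.05, against 4.0% of all probe sets. These were 2 members (from 3) on U74Av2, none with or without it on U74Bv2 and 5 (from 6) on U74Cv2.

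Of 38 named probe sets, 26 kept their sign throughout. Quantile normalization turned Cyc1 to 0.053 and Ndufs8 to 0.061. Without 1 dish, differences ran from -0.11 to 0.025 for Cyc1, from -0.17 to 0.024 for Ndufs8, from -0.23 to 0.0016 for Sdhb, from -0.19 to 0.59 for Cox6a2, from -0.076 to 0.62 for Cox7a1 and from -0.030 to 0.29 for Cox7b2. For Cox6b2 they ran from -0.41 to 0.32 (160813_r_at), from -1.12 to 0.34 (97351_i_at) and from -0.72 to 0.44 (97352_f_at), for Cox8b from -0.16 to 0.26 (161205_at), and for Cox8c from -0.065 to 0.19 (161475_f_at) and from -0.078 to 0.64 (167410_at). The cause was not tested. Moving Ndufa4 to complex IV was not run, since no member carries that symbol. Signals near background limit the 30 members under 100, for which no detection call was used.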
